A study of Mus musculus with 89 samples.

Results

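The genes described here are Msx1, Msx2, Sp8 and Piezo2, which were followed through 4 states of Esrrb and Nr5a2 in mouse embryonic stem cells (ESCs) grown in 2 media. Msx1, Sp8 and Piezo2 were chosen by their large rises in FCS/LIF after loss of Esrrb, alone or together with Nr5a2, and Msx2 was added as the paralogue of Msx1. They are 4 of the 54146 genes in the table of counts, and each was found by its symbol in exactly 1 row. The values that chose Msx1, Sp8 and Piezo2 are therefore given as a description, with no test, and tests are given for the 2i/LIF libraries, for −N cells in FCS/LIF and for Msx2.

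RNA-seq was made from 20 libraries. All cells derive from the line EKOiE, whose endogenous Esrrb genes are knocked out and which carries an Esrrb transgene induced by doxycycline (Dox). The state +E+N is EKOiE kept in Dox at 1 µg/ml, and −E is EKOiE 2 days after Dox withdrawal. The state −N is EKOiE NrKO in Dox at 1 µg/ml, where NrKO stands for Nr5a2 disrupted on both alleles in the exon encoding the first part of its DNA-binding domain, and −E−N is EKOiE NrKO 2 days after Dox withdrawal. Each state had 2 libraries in FCS/LIF, a medium with foetal calf serum and the cytokine LIF, and 3 libraries in 2i/LIF, where inhibitors of MEK and of GSK3 are added to LIF. The labels do not name the NrKO clone, so Nr5a2 loss and other traits of that clone cannot be told apart, and neither can medium and culture batch. The cells were grown without feeders on gelatine. The labels do not describe the replicates further, and the study calls them independent experiments.

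Msx1 and Msx2 are homeobox transcription factors that mostly act as repressors. They are known as targets of Bmp signalling in the limb bud, the tooth germ, the neural crest and the border of the neural plate. Sp8 is a zinc-finger transcription factor of the Sp family, needed for the apical ridge of the limb bud and for forebrain patterning, and its family member Sp5 is a well-known Wnt target. Piezo2 is a mechanically gated cation channel through which sensory neurons and Merkel cells detect touch and body position. None of these genes is a marker of undifferentiated ESCs. Esrrb and Nr5a2 are orphan nuclear receptors that bind DNA as monomers at closely similar elements.

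The 8 FCS/LIF libraries held 36514172 to 45443379 counts and the 12 of 2i/LIF 26653035 to 32526534. Levels are given as CPM, counts per 1000000 of the TMM-scaled library total. All 10 ESC markers examined, Pou5f1, Sox2 and Nanog among them, were above 0 in every library. In FCS/LIF, Esrrb fell from 312 ± 57.6 CPM with Dox to 69.6 ± 6.44 in −E cells, and was lowest in −E−N cells at 30.1 ± 1.72 (SD, n = 2). In 2i/LIF, +E+N cells had 576 ± 52.8 CPM, −E cells 418 ± 33.2 and −E−N cells 145 ± 36.1 (SD, n = 3), so Esrrb reads were far from absent after Dox withdrawal, most of all in −E cells of 2i/LIF, where the change did not pass the test (log2 fold change −0.46, SE 0.16, edgeR adjusted p = 0.116). The counts do not separate transgene from endogenous reads. The study reports that binding of Esrrb to DNA, measured by ChIP-seq in the medium with inhibitors, was lost after Dox withdrawal. The reads given here therefore do not measure how much working Esrrb remained, and they do not show that its depletion failed. Nr5a2 reads remained in −N cells of both media (26.3 ± 1.14 CPM in FCS/LIF, n = 2, and 68.8 ± 8.27 in 2i/LIF, n = 3), and a gene count cannot show the disrupted exon.

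In the mm10 genome, Msx1 (ENSMUSG00000048450) spans 4099 bp of the minus strand at chr5:37820485-37824583, and its coding transcript has 2 exons and encodes 303 residues. Msx2 (ENSMUSG00000021469) spans 6191 bp of the minus strand at chr13:53466884-53473074, also with 2 exons in its coding transcript, and encodes 267 residues. Sp8 (ENSMUSG00000048562) spans 6248 bp of the plus strand at chr12:118846329-118852576, and its longest coding sequence encodes 486 residues. No other GENCODE gene overlaps Msx1, Msx2 or Sp8.

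Promoter sequences were examined because Esrrb and Nr5a2 bind DNA at known elements, written TCAAGGTCA for Esrrb and TCAAGGCCA for Nr5a2. RefSeq windows of 250 bases before to 50 bases after a start were held for Msx1 (1 window), Msx2 (1 window) and Sp8 (3 windows), in build GRCm38.p6. Neither element occurs, on either strand, in any of these 5 windows. Over 32851 windows of the same length from all genes, 0.423% hold the first element and 0.591% the second. CCAAT, a common promoter element read on both strands as CCAAT or ATTGG, occurs in the windows of Msx1 and Msx2 and in 2 of the 3 windows of Sp8, against 37.4% of all windows. The sequences upstream of the annotated transcripts of Msx1 (chr5:37824586-37824835, minus strand) and Sp8 (chr12:118846079-118846287, plus strand) are shown for the contrast between them, with CCAAT boxes in capitals:
Msx1: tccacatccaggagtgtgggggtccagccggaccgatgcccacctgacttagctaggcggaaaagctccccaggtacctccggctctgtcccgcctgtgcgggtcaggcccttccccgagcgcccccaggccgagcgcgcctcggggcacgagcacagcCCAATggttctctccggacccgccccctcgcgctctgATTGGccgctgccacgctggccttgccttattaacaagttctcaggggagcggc
Sp8: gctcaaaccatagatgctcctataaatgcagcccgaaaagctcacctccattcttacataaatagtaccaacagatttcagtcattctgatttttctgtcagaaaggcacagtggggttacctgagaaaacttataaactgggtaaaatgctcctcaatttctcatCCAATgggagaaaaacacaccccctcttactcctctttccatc
The Msx1 sequence has 2 boxes, 1 in each orientation, and a GC share of 68.0%. The Sp8 sequence has 1 box and a GC share of 41.1%. In the full windows, Msx1 has 29 CpG sites, more than 87.1% of all windows, and Msx2 has 22. The first Sp8 window, upstream of the start at the 5′ end of the gene, has 2 CpG sites, whereas its second window has 32. The median over all windows is 7. These matches describe letters only and say nothing of binding.

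Msx1 was low in control cells of both media and reached its higher levels in different states. In FCS/LIF, +E+N libraries had 0.758 and 1.01 CPM of Msx1, −E libraries 5.60 and 6.52, −N libraries 1.37 and 1.12, and −E−N libraries 6.70 and 6.10. The −E and −E−N libraries overlapped each other and lay clear of all others. The mean in −E was 6.87-fold and that in −E−N 7.25-fold the mean in +E+N (log2 fold changes 2.75, SE 0.20, and 2.83, SE 0.20). Between −E−N and −E the difference was 0.08 (SE 0.17) on the log2 scale. In −N, Msx1 was 0.47 (SE 0.23) above +E+N on the log2 scale, which did not pass the test (adjusted p = 0.358 in the quasi-likelihood test of edgeR, Benjamini-Hochberg adjustment over 15636 genes, with calls at an adjusted p under 0.01 and a fold over 1.5; the +E+N libraries of this comparison are those that chose the gene).

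In 2i/LIF, Msx1 was at 0.513, 0.928 and 0.383 CPM in +E+N, and at 0.250, 0.252 and 0.208 in −E, that is at 6 or 7 reads per library. It was at 0.871, 1.29 and 1.20 CPM in −N. In −E−N it was at 3.05, 8.51 and 20.2 CPM, from 93, 241 and 599 reads. All 3 −E−N libraries were above all other libraries of this medium, and all 3 −E libraries were below all +E+N libraries. The single losses did not pass the test (log2 fold change −1.33, SE 0.75, adjusted p = 0.354 in −E, and 0.88, SE 0.62, adjusted p = 0.427 in −N). After loss of both factors Msx1 rose by 4.14 (SE 0.59) on the log2 scale over +E+N (adjusted p = 0.000143), by 3.26 (SE 0.56) over −N (adjusted p = 0.00179) and by 5.48 (SE 0.67) over −E (adjusted p = 8.12e-05), all by edgeR over 14355 genes. Without −E−N replicate 3 the rise over +E+N was 3.26 (adjusted p = 0.000177), over −N 2.38 (adjusted p = 0.00398) and over −E 4.59 (adjusted p = 6.76e-05). The interaction, the part of the −E−N change that exceeds the sum of both single changes, was 4.60 (SE 0.92, adjusted p = 0.0332), not past 0.01. Blocking on replicate number gave 4.44 (adjusted p = 0.00607), and leaving out −E−N replicate 1 gave 5.04 (adjusted p = 0.00457), both past it.

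**Figure D1:**
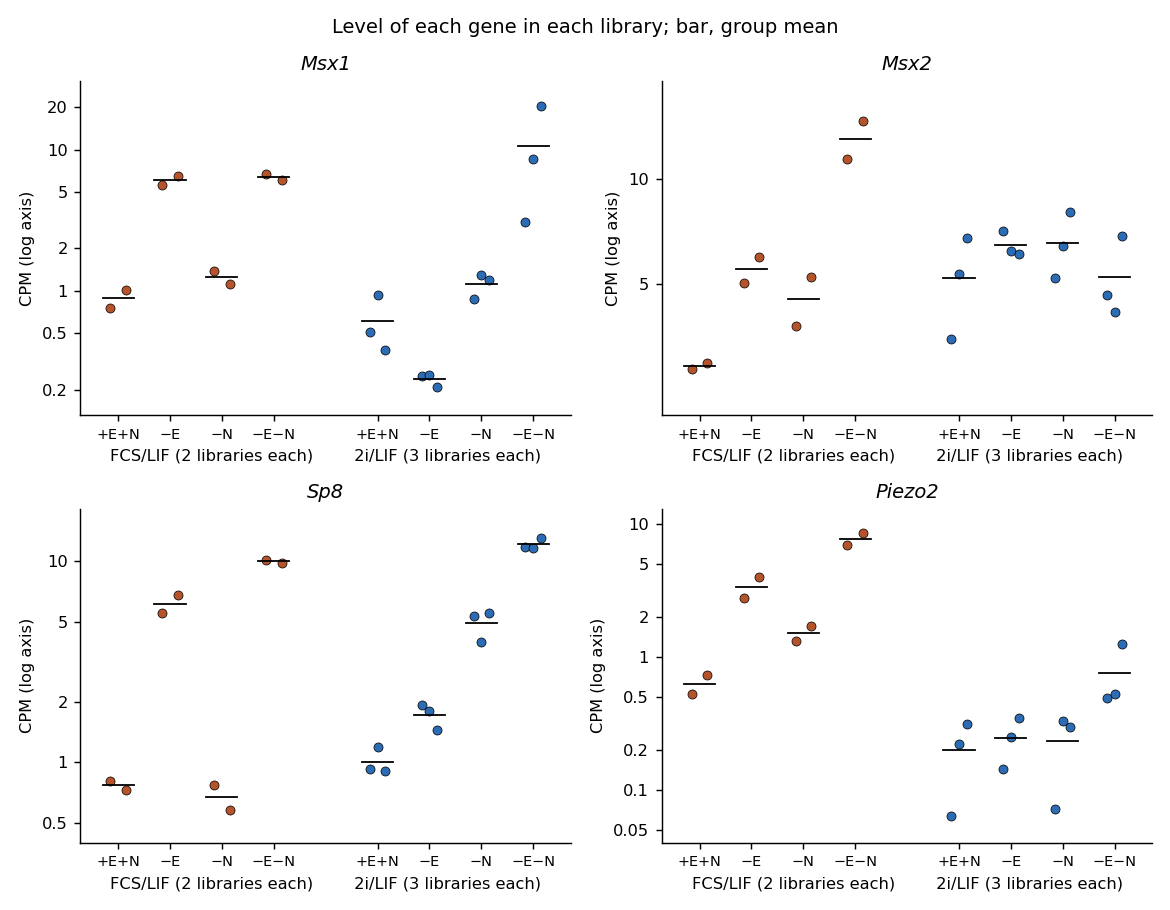
Level of each gene in each of 20 libraries, in CPM on a log axis, by state and medium; points are libraries and bars are group means. Msx1 in −E lies above +E+N in FCS/LIF and below it in 2i/LIF, Sp8 in −N overlaps +E+N in FCS/LIF and lies above it in 2i/LIF, and Msx2 and Piezo2 reach their highest levels in −E−N of FCS/LIF.

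Msx2 rose after loss of both factors in FCS/LIF, whereas no difference passed the test in 2i/LIF. In FCS/LIF, +E+N libraries had 2.87 and 2.98 CPM of Msx2, −E libraries 5.04 and 5.98, −N libraries 3.80 and 5.25, and −E−N libraries 11.3 and 14.6. The −E−N libraries were the highest of all 20. The rise in −E−N over +E+N was 4.43-fold in mean CPM (log2 fold change 2.13, SE 0.20, adjusted p = 6.47e-05), in a comparison in which 18.8% of 15636 genes were called. In −E the difference of 0.89 (SE 0.20) missed the limit (adjusted p = 0.0169), where 5.76% of genes were called, but was past it with DESeq2 (adjusted p = 0.00127) and when low-count genes were kept (adjusted p = 1.70e-05). In −N it was 0.61 (SE 0.21, adjusted p = 0.182). In FCS/LIF, −E−N exceeded −E by 1.23 (SE 0.19) on the log2 scale for Msx2.

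In 2i/LIF, +E+N libraries had 3.50, 5.35 and 6.75 CPM of Msx2, −E libraries 7.07, 6.22 and 6.09, −N libraries 5.22, 6.42 and 8.05, and −E−N libraries 4.66, 4.17 and 6.86. The 4 states overlapped throughout. No difference from +E+N passed the test. The −E value was 0.32 (SE 0.26, adjusted p = 0.542), the −N value 0.33 (SE 0.26, adjusted p = 0.484) and the −E−N value 0.03 (SE 0.26, adjusted p = 0.950). The last value turned negative without +E+N replicate 1 (−0.20) or without −E−N replicate 3 (−0.23), with adjusted p-values of 0.570 and 0.542.

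Sp8 was raised after loss of Esrrb in FCS/LIF, after loss of Nr5a2 in 2i/LIF, and most after loss of both in either medium, and the libraries of a state differed by 1.38-fold or less. In FCS/LIF, +E+N libraries had 0.810 and 0.733 CPM of Sp8, −E libraries 5.51 and 6.76, −N libraries 0.769 and 0.584, and −E−N libraries 10.1 and 9.81. The −N libraries overlapped those of +E+N, and −E−N lay above −E. The means were 7.95-fold that of +E+N in −E and 12.9-fold in −E−N (log2 fold changes 2.97, SE 0.20, and 3.67, SE 0.20). The −N value of −0.21 (SE 0.24) did not pass the test (adjusted p = 0.738), and its +E+N libraries are those that chose the gene. On the log2 scale, −E−N exceeded −E by 0.70 (SE 0.16) and −N by 3.88 (SE 0.20).

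In 2i/LIF, +E+N libraries had 0.930, 1.19 and 0.905 CPM of Sp8, −E libraries 1.93, 1.80 and 1.45, −N libraries 5.33, 3.98 and 5.50, and −E−N libraries 11.8, 11.6 and 13.0. No 2 states overlapped. In −N Sp8 rose 4.90-fold in mean CPM over +E+N (log2 fold change 2.29, SE 0.20, adjusted p = 2.25e-05). In −E−N it rose further over +E+N (3.60 on the log2 scale, SE 0.20, adjusted p = 1.20e-07). It also rose in −E−N over −N (1.32, SE 0.18, adjusted p = 0.000359) and over −E (2.82, SE 0.19, adjusted p = 9.13e-07). The −E difference of 0.78 (SE 0.21) did not pass (adjusted p = 0.0433). In a comparison added after these values were seen, −N exceeded −E by 1.51 (SE 0.19, adjusted p = 0.000354), where 3.94% of genes were called. The interaction was 0.54 (SE 0.27, adjusted p = 0.421).

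Piezo2 had 20 to 342 reads per library in FCS/LIF and 2 to 37 in 2i/LIF, and its +E+N libraries of FCS/LIF, the base of its fold changes there, held 20 and 32. Piezo2 (ENSMUSG00000041482) spans 376971 bp of the minus strand at chr18:63010213-63387183 in mm10, with 54 exons in the transcript with the longest coding sequence, which encodes 2824 residues. Its span holds 2 unclassified genes, 1 of them on the opposite strand, and the strand setting of the counting step is not given in the sources used here, so antisense reads at Piezo2 cannot be told apart from its own. In FCS/LIF, +E+N libraries had 0.523 and 0.733 CPM of Piezo2, −E libraries 2.77 and 3.95, −N libraries 1.32 and 1.71, and −E−N libraries 6.91 and 8.45. No 2 states overlapped, and the order of the levels was +E+N, −N, −E, −E−N. The means were 5.35-fold that of +E+N in −E and 12.2-fold in −E−N (log2 fold changes 2.39, SE 0.28, and 3.58, SE 0.27). The −N difference was 1.24 (SE 0.30) and did not pass the edgeR test (adjusted p = 0.0778), where 0.173% of genes were called. It did pass when low-count genes were kept (adjusted p = 0.000209), a fit whose share of genes called is not given here. The +E+N libraries of this comparison are those that chose the gene, so their low level is part of that choice. The interaction, on the log2 scale, was −0.05 (SE 0.35).

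In 2i/LIF, +E+N libraries had 2, 6 and 9 reads of Piezo2, −E libraries 4, 7 and 10, −N libraries 2, 9 and 8, and −E−N libraries 15, 15 and 37, the last being 0.493, 0.530 and 1.25 CPM. No state had 20 reads in all its libraries, so Piezo2 was not tested in this medium with the other genes. The 3 −E−N libraries lay above the 9 others. By an exact two-sided permutation test of mean CPM, −E−N differed from each of the other 3 states with p = 0.1, the smallest that 3 against 3 libraries allow (0.167 after adjustment over 5 comparisons), and −E and −N differed from +E+N with p = 0.6 and p = 0.7. This test treated the libraries as unpaired, and pairing by replicate number would raise the smallest p allowed. In edgeR fits of the 2i/LIF libraries that kept the gene, the −E−N difference over +E+N was 1.92 with no filter (SE 0.59, adjusted p = 0.0175) and 1.92 with the filterByExpr filter (SE 0.62, adjusted p = 0.0267), neither past the limit. The fit of all 20 libraries admits Piezo2 through the FCS/LIF libraries that chose it, so its value there, also 1.92 (SE 0.52), is a description.

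Counted over the members, 2 of the 3 tested in 2i/LIF, Msx1 and Sp8, were called higher in −E−N against +E+N, where 9.06% of 14355 genes were called higher and 18.6% in either direction. The same pair was called higher in −E−N against −N (3.39% of genes called higher, 6.76% in either direction) and against −E (6.9% and 13.1%). After Nr5a2 loss alone, 1 of 3, Sp8, was called, where 3.65% of genes were. After Esrrb loss alone, none of 3 was called by edgeR or DESeq2, where 1.55% of genes were called, and 1 of 3 had an unadjusted p under 0.05. For the interaction none of 3 was called by the edgeR fit of 2i/LIF with the filter on low counts and no block. That fit called 0.307% of genes, and 1 of 3 had an unadjusted p under 0.05 in it. DESeq2 called 1, Msx1, as did edgeR without that filter, with the replicate block and in the fit of 20 libraries. In −N of FCS/LIF none of 4 was called by DESeq2 or by edgeR with the filter on low counts and no block. That edgeR fit called 0.173% of genes, and 2 of 4 had an unadjusted p under 0.05 in it. Of these 4, Piezo2 was called by edgeR without that filter and, in a further fit with it, when replicate number was a block. The shares of genes called use the adjusted limit. The share of all genes with an unadjusted p under 0.05 is not given here, so the unadjusted counts cannot be read as an excess. The comparisons within a medium share the +E+N libraries and so are not independent of each other, and in FCS/LIF these libraries also chose Msx1, Sp8 and Piezo2.

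**Figure D2:**
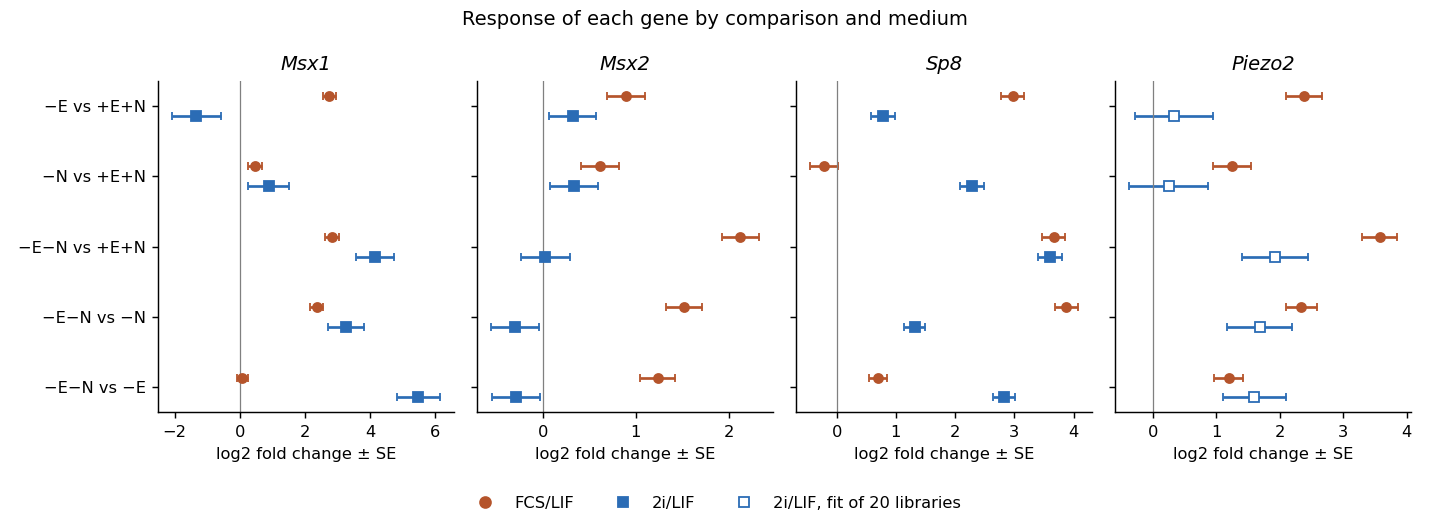
Log2 fold change of each gene with its SE (horizontal bars) in 5 comparisons, circles for FCS/LIF and squares for 2i/LIF; open squares are Piezo2 values from the fit of 20 libraries, since it was not in the 2i/LIF fit. Msx1 has opposite signs in −E, Sp8 separates in −N, Sp8 has nearly the same value in −E−N of both media, and Msx2 is near 0 in 2i/LIF.

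Set side by side, the 2 media gave different responses for the same gene. For Msx1, the −E response of 2.75 in FCS/LIF faced −1.33 in 2i/LIF, a difference of 4.11 (SE 0.90) in the fit of 20 libraries, and for Sp8 it was 2.97 and 0.78, a difference of 2.21 (SE 0.29). These differences rest on the libraries that chose the genes and carry no test. The difference of the −N responses of Sp8 does not use the states that chose it, other than +E+N, and was tested after the values were seen: it was −2.48 (SE 0.31, FCS/LIF minus 2i/LIF), with an adjusted p of 0.000337, where 0.743% of 16147 genes were called. For Msx1, Msx2 and Piezo2 the −N responses of the media differed by −0.40 (SE 0.82), 0.29 (SE 0.37) and 1.02 (SE 0.80), none past the limit (adjusted p = 0.887, 0.797 and 0.617). After loss of both factors, the responses differed (FCS/LIF minus 2i/LIF) by 0.10 (SE 0.28) for Sp8 and 2.13 (SE 0.37) for Msx2. For Piezo2 the difference was 1.67 (SE 0.74) and for Msx1 −1.28 (SE 0.77), all without a test. In control cells, 2i/LIF minus FCS/LIF was 0.83 (SE 0.27) for Msx2, −1.66 (SE 0.56) for Piezo2, −0.55 (SE 0.61) for Msx1 and 0.38 (SE 0.23) for Sp8, as a description.

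In order of level over the 8 groups, Msx1 was lowest in −E of 2i/LIF at 0.236 ± 0.0249 CPM and highest in −E−N of 2i/LIF at 10.6 ± 8.78 (SD, n = 3). Its 5 lowest groups, up to 1.25 ± 0.174 in −N of FCS/LIF (n = 2), formed a graded series in which each overlapped the next except the lowest. Its 3 highest groups, from 6.06 ± 0.651 in −E of FCS/LIF (n = 2), overlapped each other. For Msx2, the 6 groups between the lowest, +E+N of FCS/LIF at 2.93 ± 0.0744 (n = 2), and the highest, −E−N of FCS/LIF at 13.0 ± 2.28 (n = 2), lay from 4.53 to 6.56, and most neighbours overlapped. For Sp8, only the lowest pair, −N and +E+N of FCS/LIF at 0.677 ± 0.131 and 0.772 ± 0.0542 (n = 2), overlapped, and its highest groups were −E−N of FCS/LIF at 9.95 ± 0.198 (n = 2) and −E−N of 2i/LIF at 12.1 ± 0.739 (n = 3). Piezo2 ran from 0.200 ± 0.126 in +E+N of 2i/LIF (n = 3) to 7.68 ± 1.09 in −E−N of FCS/LIF (n = 2), and its 3 lowest groups overlapped.

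Levels of different genes can be compared only per length, in TPM. In −E−N of FCS/LIF (n = 2), Msx2 was the highest member at 7.61 ± 1.24 TPM, before Msx1 at 4.92 ± 0.396, Sp8 at 3.04 ± 0.198 and Piezo2 at 1.60 ± 0.177 (SD). In −E−N of 2i/LIF (n = 3), Msx1 was at 7.30 ± 6.07 TPM, Sp8 at 3.44 ± 0.321, Msx2 at 2.74 ± 0.750 and Piezo2 at 0.190 ± 0.0557 (SD). Msx1 ranged there from 2.05 to 13.9 TPM and overlapped Sp8 and Msx2, so only Piezo2 stood apart in that group. In bulk RNA, fewer cells of a type and less RNA per cell cannot be told apart, so these levels can be an average over cells with and without a gene's RNA.

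Against all 14355 genes tested in 2i/LIF, the −E−N response of Msx1 ranked 129 from the top and that of Sp8 190, and the −N response of Sp8 ranked 119. The interaction of Msx1 ranked 3 from the top by size. The −E response of Msx1 was the 157th from the bottom, though its adjusted p was 0.354. In FCS/LIF, among 15636 genes, the −E−N response of Sp8 ranked 11, Piezo2 12 and Msx1 65 from the top, and their −E responses 14, 44 and 21. The ranks in FCS/LIF follow from how these genes were chosen. That of Msx2 in −E−N was 260.

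**Figure D3:**
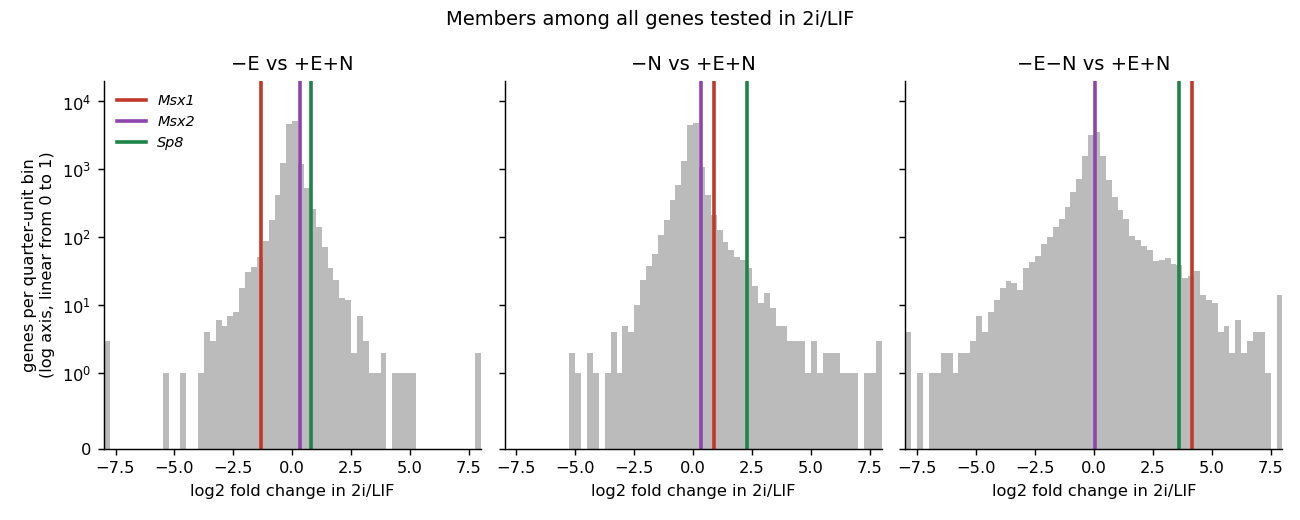
Numbers of genes per bin of log2 fold change in 2i/LIF (grey, 14355 genes, log axis, end bins also holding larger changes) for −E, −N and −E−N against +E+N, with Msx1, Msx2 and Sp8 as coloured lines. Sp8 lies in the upper tail in −N, Msx1 and Sp8 lie in the upper tail in −E−N, and Msx2 stays in the bulk of genes.

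The 3 −E−N libraries of 2i/LIF differed from each other far more for Msx1 than for the other members. The highest Msx1 level was 6.63-fold the lowest, against 1.12-fold for Sp8, 1.65-fold for Msx2 and 2.54-fold for Piezo2, the last from 15 to 37 reads. The SD of log2(CPM + 1) over these libraries was 1.19 for Msx1, above that of 99.9% of 12460 genes averaging 50 counts or more there, whose median was 0.12. It was 0.33 for Piezo2, 0.32 for Msx2 and 0.08 for Sp8, the last above only 29.9% of genes. The added 1 lowers this SD most for genes at low levels. Replicate 3, the highest for Msx1, was also the highest of the 3 for Piezo2, Msx2 and Sp8.

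Other values were also highest or lowest in replicate 3, a single library. Between replicates 1 and 2, Msx1 rose from 3.05 to 8.51 CPM and Nr5a2 fell from 46.1 to 34.3 CPM. The summed ESC and trophectoderm marker levels given below changed little between these 2 single libraries. Replicates 1, 2 and 3 had 171, 161 and 104 CPM of Esrrb and 46.1, 34.3 and 20.9 CPM of Nr5a2, so replicate 3 was lowest for both. The summed level of the 10 ESC markers was 2617, 2601 and 1988 CPM in the same order, against 4197 to 4432 in +E+N. The summed level of 8 trophectoderm markers was 345, 332 and 532 CPM, whereas +E+N libraries had 87.1 to 100, −E libraries 77.7 to 95.9 and −N libraries 149 to 164, and none of the 8 was at 0 in the −E−N libraries. Of the 6 trophectoderm markers tested, 5 rose in −E−N and none fell, led by Cdx2, a trophectoderm transcription factor and Wnt target (5.03, SE 0.58, adjusted p = 2.79e-05). In the same comparison, 9.06% of all tested genes were called higher and 18.6% in either direction. In FCS/LIF the sum of these 8 markers was 415 to 477 CPM in +E+N libraries, 551 to 744 after Esrrb loss, 818 to 1099 after Nr5a2 loss and 1517 to 2331 after loss of both. Their part in the levels of Msx1, Msx2, Sp8 and Piezo2 was not tested.

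**Figure D4:**
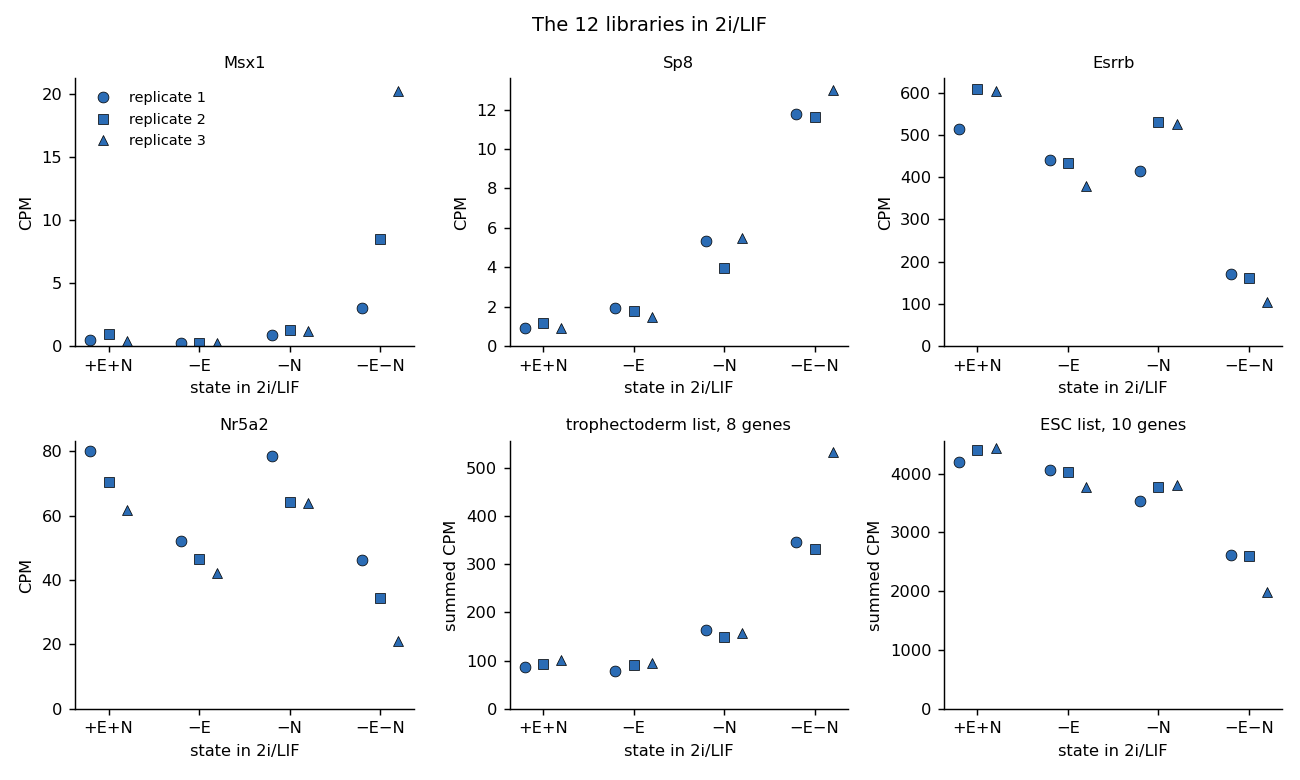
Levels in the 12 libraries of 2i/LIF, as CPM for Msx1, Sp8, Esrrb and Nr5a2 and as summed CPM for the 8 trophectoderm and 10 ESC markers; the symbol gives the replicate number. In −E−N, replicate 3 is highest for Msx1 and the trophectoderm markers and lowest for Esrrb, Nr5a2 and the ESC markers, while the 3 libraries are close for Sp8.

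The relatives of these genes were examined as lists. Values are log2 fold changes in −E−N against +E+N of 2i/LIF, where the median over all tested genes was 0.01. Of all tested genes, 9.06% were called higher there and 18.6% in either direction. Of 7 other Msx and Dlx genes, 1 was tested, the homeobox gene Dlx3, and not called (2.26, SE 0.79, adjusted p = 0.0377). The summed level of these 7 genes in −E−N replicates 1, 2 and 3 was 3.42, 4.73 and 18.3 CPM, highest in replicate 3 as for Msx1. In −E−N of FCS/LIF 2 of the 7 were tested and both were called higher, Dlx3 (2.42, SE 0.17, adjusted p = 1.63e-05) and Dlx6 (3.45, SE 0.68, adjusted p = 0.00318), where 18.8% of genes were called. Of 8 other Sp factors, 6 were tested and 1 rose, Sp5, a Wnt target (3.05, SE 0.38, adjusted p = 5.26e-05), and the median was 0.06. Sp8 and Sp5 thus stood apart in size from the 5 further Sp factors, whose values lay between −0.54 and 0.35. Of 10 further mechanically gated channels, 7 were tested: Piezo1, the paralogue of Piezo2, rose (1.28, SE 0.10, adjusted p = 9.23e-07), Kcnk4, a stretch-sensitive potassium channel, fell (−3.12, SE 0.41, adjusted p = 7.26e-05), and the median was 0.04.

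Of 24 genes of the Bmp pathway, which controls Msx1 and Msx2 in many tissues, 18 were tested, 3 rose, 2 fell and the median was 0.24. Over all genes tested, 9.06% were called higher in this comparison and 18.6% in either direction. The largest rise was that of Fst, a secreted antagonist of activins and Bmps (2.38, SE 0.20, adjusted p = 2.80e-06), and the largest fall that of Smad9, a signal transducer of Bmp receptors (−1.60, SE 0.32, adjusted p = 0.00174). Of 14 Wnt feedback and target genes, all tested, 10 rose, none fell and the median was 1.40, led by Lgr5, a receptor for R-spondins (6.36, SE 0.58, adjusted p = 1.37e-05). The same 14 Wnt genes had 1 called higher and none lower in −E, where 1.55% of all genes were called, and 4 higher and none lower in −N, against 3.65% of all genes. In −E−N of FCS/LIF, 6 of these 14 were higher and 1 lower, and 9 of 22 tested Bmp genes were higher and none lower, against 18.8% of all genes called in either direction.

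Lists for tissues in which these genes are known gave mixed directions in −E−N of 2i/LIF. Their counts stand beside 9.06% of all tested genes called higher and 18.6% called in either direction. Of 7 tested genes of the neural plate border, 2 rose, led by Gata2 (4.86, SE 0.41, adjusted p = 2.30e-06), and 2 fell, led by Tfap2a (−1.95, SE 0.19, adjusted p = 9.41e-06), both transcription factors. Of 9 tested genes of the limb bud and apical ridge, 4 rose, led by the ligand Wnt7a (3.59, SE 0.56, adjusted p = 0.000266), and 1 fell, the growth factor Fgf10 (−2.36, SE 0.47, adjusted p = 0.00148), with a median of 1.22. Of 5 tested sensory neuron genes none rose and 2 fell, led by Tubb3, a neuronal tubulin (−2.87, SE 0.34, adjusted p = 3.56e-05). Of 6 tested genes of primitive streak and mesoderm, 1 rose, the transcription factor T (2.44, SE 0.53, adjusted p = 0.00275), and 2 fell, led by Gsc (−2.79, SE 0.17, adjusted p = 2.53e-07). Of 5 primitive endoderm genes, 2 rose, led by Foxa2 (3.12, SE 0.37, adjusted p = 3.19e-05), and 1 fell, Gata4 (−1.52, SE 0.39, adjusted p = 0.00819). Of 10 ESC markers 6 fell and none rose, led by Klf4 (−1.77, SE 0.15, adjusted p = 2.54e-06).

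**Figure D5:**
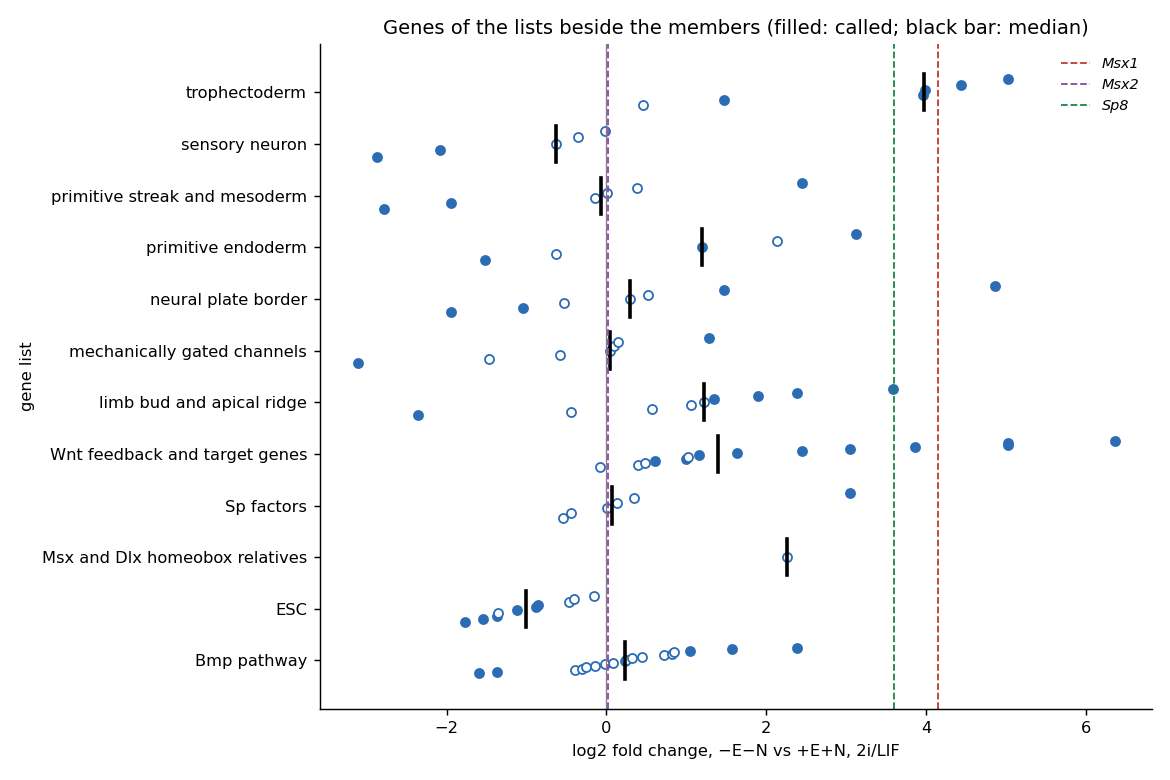
Log2 fold change in −E−N against +E+N of 2i/LIF for each tested gene of the 12 lists, filled where called and open where not, with the list's median as a black bar and Msx1, Msx2 and Sp8 as dashed lines. Medians are 3.98 for trophectoderm, 1.40 for Wnt genes and 0.24 for the Bmp pathway, and Msx1 lies to the right of all tested genes of 9 lists.

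The genes with the most similar profiles over the 20 libraries were sought by the Pearson correlation of log2(CPM + 1) among 11735 genes averaging 100 counts or more. For Sp8 they were Wls, which carries Wnt ligands to the cell surface (r = 0.960), Gpx8 (0.915) and Plpbp (0.914). For Msx1 they were Gprc5c (0.956), Psd3 (0.921) and Phc2, a Polycomb component (0.906). For Piezo2 they were the kinase Map4k5 (0.980), Slc35f5 (0.970) and the kinase Cdk14 (0.965). Msx2 had lower values, with Bend4 (0.842), Smpd1 (0.838) and Qsox1 (0.836). The background differed too: among the genes compared, 1 in every 100 had r above 0.781 for Sp8, 0.800 for Msx1, 0.914 for Piezo2 and 0.650 for Msx2. Wls and Sp8 kept r = 0.982 over the 12 libraries of 2i/LIF and 0.983 over the 8 of FCS/LIF. Between members, r was 0.810 for Msx1 and Sp8, 0.645 for Msx1 and Piezo2, 0.436 for Sp8 and Piezo2, and 0.305 for Msx1 and Msx2. The paralogues had r = 0.785 in FCS/LIF and −0.10 in 2i/LIF. These correlations describe libraries that share states and media, and no test is attached to them. Those between Msx1, Sp8 and Piezo2 also include the FCS/LIF libraries whose rises chose them, so they follow in part from that choice.

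The nearest tested protein-coding genes on each side of the members were examined in −E−N against +E+N. Of all genes tested, 18.8% were called in −E−N of FCS/LIF and 18.6% in −E−N of 2i/LIF, so the shares among neighbours are near the background. In −E−N of FCS/LIF, 1 of 8 such neighbour positions held a called gene, Itgb8, an integrin subunit 305446 bp above Sp8 (log2 fold change 2.99, against 2.20 for −E cells and 0.99 for −N cells). In −E−N of 2i/LIF, 1 of 7 did, Evc2, 395430 bp below Msx1 (0.93). Napg, only 10763 bp from Piezo2, was at 0.05 in FCS/LIF and −0.32 in 2i/LIF. These neighbours were looked at after the values of the members were known.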

How the data were processed

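Genes and lists were chosen with earlier results of these data known, and the genes named follow a rule: the members, the called list gene with the largest rise and fall in −E−N of 2i/LIF, the 3 most similar profiles per member, Esrrb and Nr5a2. ESC markers named as examples, the Dlx genes and the neighbouring genes fall outside the rule, their values being known when they were named. Stranded paired-end polyadenylated RNA-seq reads were aligned to mm10 by the authors with STAR, and RSEM gave the deposited expected counts per gene and the deposited TPM values (versions not given in the sources used here). Counts were rounded, 92 ERCC rows with no reads were removed, and the 4 states of each medium were fitted together in edgeR 4.0.16 (R 4.3.3; TMM; quasi-likelihood test; Benjamini-Hochberg) over genes reaching 20 counts in each library of 1 or more states. The steps were tested on simulated data. Intervals from replicates cover the spread between libraries, and 20 reads or fewer leave large counting error. ChIP-seq samples were not analysed here. Promoters are from RefSeq and gene models from GENCODE vM21, which held all 4 members.

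Alternatives were DESeq2 1.42.0, its size factors, no filter, filterByExpr, a single fit of the 20 libraries, limma 3.58.1 with log2-transformed TPM (pseudocount 1 or 0.1), the replicate number as a block and each library left out. Same-numbered libraries of 2i/LIF deviated together (correlations of deviations over 0.1 in 17 of 18 pairs), all but +E+N and −E−N number 2 (0.00733), so numbers were taken to pair states other than that pair. In FCS/LIF the 2 numbers gave correlations from 0.116 to 0.535, too few pairs for a decision.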

Additional observations from a re-analysis of the deposited data

Results flagged for a closer look

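Msx1 lay on opposite sides of +E+N after Esrrb loss in the 2 media: its log2 fold change in −E against +E+N was 2.75 in FCS/LIF, with both −E libraries above both +E+N libraries, and −1.33 in 2i/LIF, with all 3 −E libraries below all 3 +E+N libraries. The difference was not tested, since the FCS/LIF values chose the gene, and the 2i/LIF value, which did not pass its own test, rests on 6 or 7 reads in each −E library.

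The −N response of Sp8 differed between the media by −2.48 (FCS/LIF minus 2i/LIF, SE 0.31, edgeR adjusted p = 0.000337), with overlapping libraries in FCS/LIF and all 3 −N libraries above all 3 +E+N libraries in 2i/LIF. This comparison was chosen after the values were seen, and medium and culture batch cannot be told apart.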

How the results depend on the processing

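Every call given above for Msx1 and Sp8 within 2i/LIF held under each alternative and with each library left out. The same was true of Msx2 in −E−N against +E+N of FCS/LIF. The FCS/LIF differences that rest on the libraries that chose Msx1 and Sp8 carry no call and are not covered by this. Differences that were not called became called as follows. The Msx1 interaction in 2i/LIF (4.60) was called with DESeq2 (4.62), without the filter (4.59), with the replicate block (4.44) and in the fit of 20 libraries (4.58), and lay between 3.71 and 5.04 with a library left out. Msx1 in −N against −E of 2i/LIF (2.22, a comparison added after the data were seen) was called with DESeq2 (2.24) and without the filter (2.24). Msx2 in −E of FCS/LIF (0.89) was called with DESeq2 (0.90), without the filter (0.89), with the replicate block (0.89) and without −N replicate 1 (0.89) or 2 (0.89), within 0.77 to 1.02. Piezo2 in −N of FCS/LIF (1.24) was called without the filter (1.24) and with the replicate block (1.25). Of the calls given here, the block changed no other. Signs turned only near 0: Msx2 in −E−N of 2i/LIF (0.03) ranged from −0.23 to 0.26 with a library left out, Sp8 in −N of FCS/LIF was 0.058 and 0.21 in limma with pseudocounts 1 and 0.1, Msx1 in −E−N against −E of FCS/LIF (0.08) ranged from −0.048 to 0.18 with a library left out, and the Piezo2 interaction in FCS/LIF was 0.39 and 0.21 in limma and ranged from −0.32 to 0.20 with a library left out. The pseudocount of 1 in TPM shrinks low genes by construction: Sp8 in −E−N of 2i/LIF was 1.79, against 3.60.

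The numbers of genes called, against which the members were read, moved more. They were 901 in −E of FCS/LIF (314 to 1631 over all alternatives), 27 in −N of FCS/LIF (5 to 548), 2934 in −E−N of FCS/LIF (1812 to 3757), 223 in −E of 2i/LIF (87 to 596), 524 in −N (243 to 1115), 970 in −E−N against −N (510 to 1622), 44 for the interaction (7 to 324) and 565 in −N against −E (336 to 1241). The causes were not tested. Piezo2 had 37 reads or fewer in each library of 2i/LIF, which limits its precision.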
